A study of Mus musculus with 6 samples.

Results

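Hnf4a and Hnf4g, the genes of the hepatocyte nuclear factor 4 (HNF4) nuclear receptors of the mouse kidney tubule, were followed in whole embryonic kidneys with and without Foxd1. They were chosen by name, with earlier results of these data known. Each had 1 row with a single gene symbol on the array, so the 2 members stand among 19938 genes. The comparison was between 3 pools labelled Foxd1 null (Foxd1-/-) and 3 pools of wild type littermates at E14.5, called null and wild type pools after their labels. The parents were Foxd1+/-, each pool held 2 kidney pairs taken from different litters out of 3, and embryos were not sexed. Foxd1, a forkhead factor of stromal progenitors, is not a gene of the tubule itself, and the kidneys carry the null allele in all their cells. No strain is named, and neither is the part of Foxd1 that the allele lacks. Values are deposited log2 signals of an Affymetrix gene array, in which 1 unit is a doubling. The row of Foxd1 was not lower in the pools labelled null: it read 10.05, 9.77 and 9.71 there against 9.40, 9.55 and 9.69 in wild type, a log2 difference of 0.30 (SE 0.11, adjusted p = 0.246, limma). Where its probes lie relative to the allele was not examined, so this row does not check the labels, and each direction given here rests on them. Array medians lay between 6.98 and 7.06.

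HNF4 receptors bind DNA as dimers at repeated half-sites and switch on genes of absorption, fat and sugar metabolism in liver, gut and kidney. In the mouse nephron Hnf4a is made in proximal tubule precursors and their descendants, and without it the proximal tubule does not mature. Hnf4g is a close relative made in the same tubule and in the intestine.

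The mouse Hnf4a gene has alternative starts. The upstream start (P2) is known from pancreas and stomach and the downstream start (P1) from liver and kidney. The array has 1 row for the gene and does not separate the starts, so the 250 bases before each start are shown to place the gene. Both windows are from RefSeq on assembly GRCm38.p6, plus strand, and capitals mark the 50 bases next to the annotated start. The upstream window lies at chr2:163506607-163506856 and the downstream window at chr2:163546905-163547154.
Hnf4a upstream start: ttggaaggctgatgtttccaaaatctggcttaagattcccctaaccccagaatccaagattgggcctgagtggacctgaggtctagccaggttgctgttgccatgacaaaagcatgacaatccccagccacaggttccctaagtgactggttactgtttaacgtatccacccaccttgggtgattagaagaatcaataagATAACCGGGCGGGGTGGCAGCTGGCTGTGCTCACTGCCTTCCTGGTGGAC
Hnf4a downstream start: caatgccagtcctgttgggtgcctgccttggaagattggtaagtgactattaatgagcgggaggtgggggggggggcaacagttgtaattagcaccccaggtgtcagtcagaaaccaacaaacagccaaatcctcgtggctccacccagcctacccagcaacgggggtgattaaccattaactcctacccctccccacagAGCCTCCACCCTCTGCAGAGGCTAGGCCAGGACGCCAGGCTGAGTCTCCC

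Hnf4a fell in the pools labelled Foxd1 null. Its log2 values there were 6.97, 6.90 and 6.84 in pools 1 to 3. Those of the wild type were 7.87, 7.80 and 7.50 in the same order. The groups did not overlap, and 0.53 log2 units separated the highest null pool from the lowest wild type pool. The mean was 6.91 ± 0.07 (SD, n = 3) in null against 7.72 ± 0.19 (n = 3) in wild type, a log2 difference of -0.82 (SE 0.10, 95% interval -1.05 to -0.59), which is 1.76-fold lower. With limma fitted over all genes the adjusted p was 0.00327. Of all genes 0.767% were lower at an adjusted p under 0.05, and in 8.04% every null pool lay below every wild type pool. The null pools lay within 0.13 log2 units of each other, while wild type pool 3 lay 0.33 below the mean of pools 1 and 2.

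Hnf4g stood lower in the same direction but did not pass the test. Null pools 1 to 3 read 5.40, 4.99 and 5.49, and the wild type pools read 5.90, 5.89 and 5.52. Null pool 2 was the lowest, and wild type pool 3 lay only 0.02 above null pool 3, so the groups were barely apart. The mean was 5.30 ± 0.26 (n = 3) in null and 5.77 ± 0.22 (n = 3) in wild type, a log2 difference of -0.47 (SE 0.14, 95% interval -0.79 to -0.15). The adjusted p was 0.152 with limma over all genes, and the unadjusted p from the same fit was 0.00864.

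**Figure D1:**
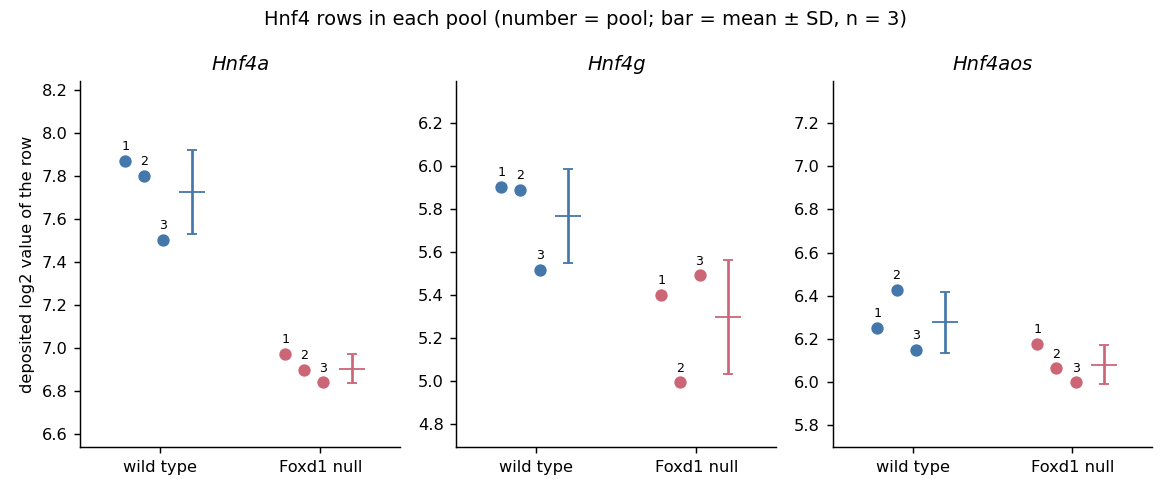
Deposited log2 values of Hnf4a, Hnf4g and the antisense gene Hnf4aos in each pool, with the pool number beside each point and the mean ± SD of 3 pools as a bar; each panel has its own axis of equal span. The Hnf4a groups are 0.53 apart, those of Hnf4g 0.02, and those of Hnf4aos overlap.

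Whether the members fell by unequal amounts was tested on the log2 ratio of Hnf4a to Hnf4g within each array. For the null it was 1.57, 1.91 and 1.35, and for the wild type 1.97, 1.91 and 1.99. It was lower by 0.35 in null, with every null pool below every wild type pool (exact two-sided permutation p = 0.1, the smallest that 3 against 3 pools can give). Null pool 2 stood just below wild type pool 2, and without null pool 3 the difference was -0.22. A larger fall of Hnf4a than of Hnf4g was therefore not shown by a test that could pass the threshold.

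In the authors' deposited table Hnf4a had a signed fold of -1.6 with p = 0.00691, and an expression p of 0.0839 in wild type and 0.370 in null. Neither expression p was under 0.05, so the signal of Hnf4a was not clear of background in that table and its fold is less certain for it. The same limit held for others of the genes named here. Of 15 looked up that had a row in the authors' deposited table, Hnf4a included, the expression p was not under 0.05 in null for 11. In wild type it was not under 0.05 for 5. Foxd1 and the genes named outside the rule for genes were not looked up. The mean of Hnf4g over the pools was higher than that of only 15.7% of genes, against 53.9% for Hnf4a, although the level of a row also depends on its probes. Hnf4aos, the antisense gene of the Hnf4a locus, named outside the rule for genes, had overlapping groups and a log2 difference of -0.20 (SE 0.09, adjusted p = 0.378, limma). Whether the probes of either row also read the other strand was not examined.

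Hnf4a kept its call in all 6 fits that left out 1 pool, with limma adjusted p from 0.00141 to 0.0249. Hnf4g passed in none of them, and its difference ranged from -0.60 without wild type pool 3 to -0.32 without null pool 2.

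**Figure D2:**
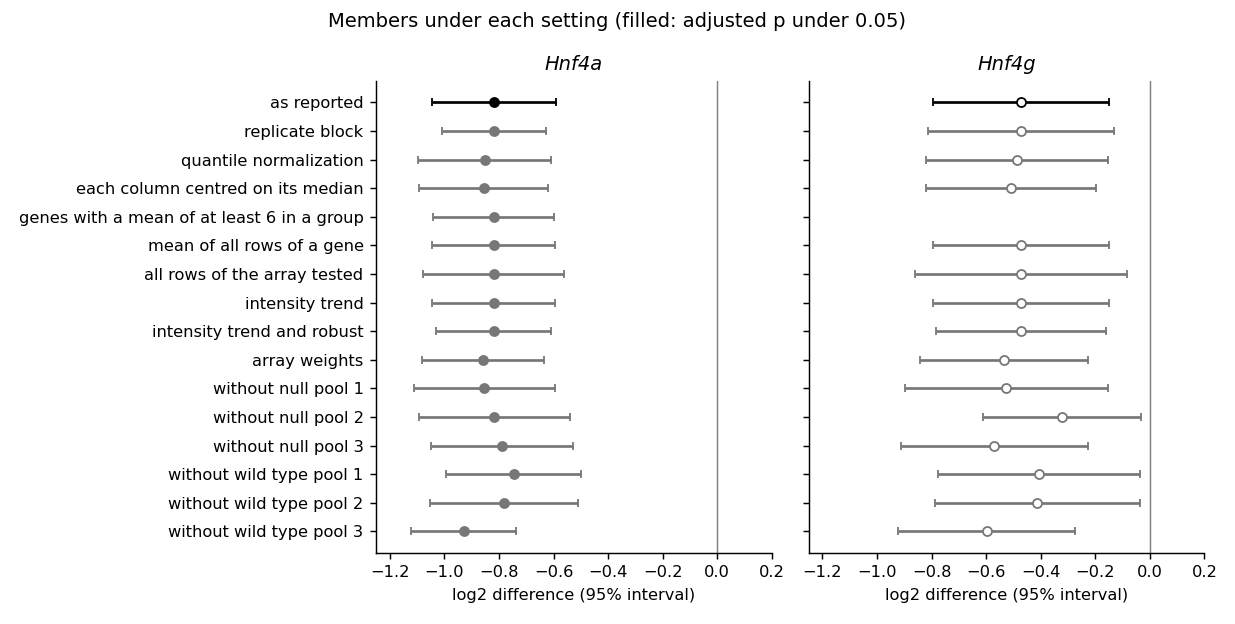
Log2 difference, null minus wild type, of Hnf4a and Hnf4g under each setting, with 95% intervals; filled points have an adjusted p under 0.05. Hnf4a is filled throughout and Hnf4g is open throughout; Hnf4g has no point where genes needed a mean of at least 6 in a group.

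In whole kidneys, fewer cells of a type and less RNA per cell cannot be told apart. Among the genes that act before or beside Hnf4a in nephron segmentation, 5 of 20 measured fell, 0 rose and 15 did not pass. Of all genes 0.767% fell and 1.64% rose. The median log2 difference of that list was -0.21, against 0.01 over all genes. Cdh6, a cadherin of proximal precursors, went from 9.66, 9.67 and 9.37 in wild type to 8.78, 8.71 and 8.67 in null, a fall of 0.85 (SE 0.09, adjusted p = 0.00191). Lhx1, a homeobox factor of the renal vesicle, fell by 1.18 (SE 0.08), Osr2 by 1.01 (SE 0.09), and Pax8, a paired-box factor of early nephrons, by 0.77 (SE 0.11). Tfap2b, a factor of the distal nephron, fell by 0.60 (SE 0.12) but passed in only 2 of the 6 fits without 1 pool (adjusted p 0.0386 with all pools, up to 0.129). In the authors' deposited table the null expression p was 0.218 for Lhx1 and 0.151 for Osr2, so the sizes of their falls are uncertain, while that of Cdh6 was 0.0126.

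The Notch pathway, which in mouse promotes proximal fate, had 7 genes on that list, and none passed. The receptors Notch1 and Notch2 differed by -0.08 (SE 0.08) and 0.04 (SE 0.08), and the ligand Jag1 by -0.02 (SE 0.10), with overlapping groups. The ligand Dll1 differed by -0.22 (SE 0.09, adjusted p = 0.318) and the target Hes1 by -0.20 (SE 0.07, adjusted p = 0.231). In both every null pool lay below every wild type pool, as was so for 8.04% of all genes. The target Hey1 was also without overlap, at -0.31 (SE 0.07, adjusted p = 0.0534), and passed in 6 of 15 alternatives (adjusted p 0.0280 to 0.211). The target Heyl differed by -0.02 (SE 0.12), with overlapping groups.

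The fall of Hnf4a was set against 3 other genes within each array, chosen after their values were seen, with p-values adjusted over 4 ratios including that to Hnf4g. Cdh6 had the highest r with Hnf4a over these same pools among 538 genes (0.998), so a nearly flat ratio to it followed from the choice and tests nothing. Relative to Cdh6 the log2 ratio of Hnf4a differed by 0.03 between genotypes (exact permutation p = 0.4, adjusted p = 0.4), with overlapping groups. Relative to Lhx1 it was higher by 0.36 in null and relative to Lrp2, the megalin receptor of the proximal brush border, by 0.77. In both the groups did not overlap, which gave the smallest exact p of 0.1 (adjusted p = 0.133), so neither could pass the threshold. Without wild type pool 3 the ratio to Lhx1 was higher by 0.23. In the authors' deposited table the null expression p was not under 0.05 for Hnf4a, Lhx1 or Lrp2 (0.370, 0.218 and 0.113), so the floor of the array may set the sizes of these shifts, which was not tested.

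Of 14 measured coactivators and repressors known to act on HNF4, 1 fell, 1 rose and 12 did not pass (2.4% of all genes were called in either direction and 1.64% rose). Ppargc1a, a coactivator that binds HNF4A, went from 8.84, 8.78 and 8.33 in wild type to 7.90, 7.84 and 7.72 in null, a fall of 0.83 (SE 0.13, adjusted p = 0.00969). Wild type pool 3 was again the lowest of its group. Without null pool 2 or wild type pool 2 the adjusted p of Ppargc1a was 0.0523 and 0.0507. Prox1, a homeobox protein that represses HNF4A activity in liver, rose by 1.07 (SE 0.23, adjusted p = 0.0446), from 6.50, 6.79 and 6.99 to 7.21, 8.20 and 8.06. It passed in only 1 of 6 fits without 1 pool (adjusted p up to 0.180), and null pools 2 and 3, where it was highest, also held the highest neuron and glia markers, of which 1 of 6 rose (medians 1.11 and 0.66 log2 units over the gene means, against -0.51 in null pool 1). The mean log2 level of that marker list was 7.19 to 8.79 in null and 6.86 to 7.38 in wild type. The part of those markers in the rise of Prox1 was not tested.

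Of 42 other nuclear receptors measured, 1 fell (0.767% of all genes fell), 0 rose and 41 did not pass, with a median difference of 0.02. The gene that fell was Esrrg, an orphan receptor of mitochondrial genes, from 7.84 to 8.15 in wild type against 7.21 to 7.56 in null (log2 difference -0.59, SE 0.11, adjusted p = 0.0245). It passed in 2 of the 6 fits without 1 pool, with adjusted p up to 0.112, and its null expression p was 0.199 in the authors' deposited table. Rxra, a partner of many receptors though not of HNF4, differed by 0.02 (SE 0.07), and Nr0b2, a receptor that lacks a DNA-binding domain and represses HNF4A, by -0.03 (SE 0.09).

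**Figure D3:**
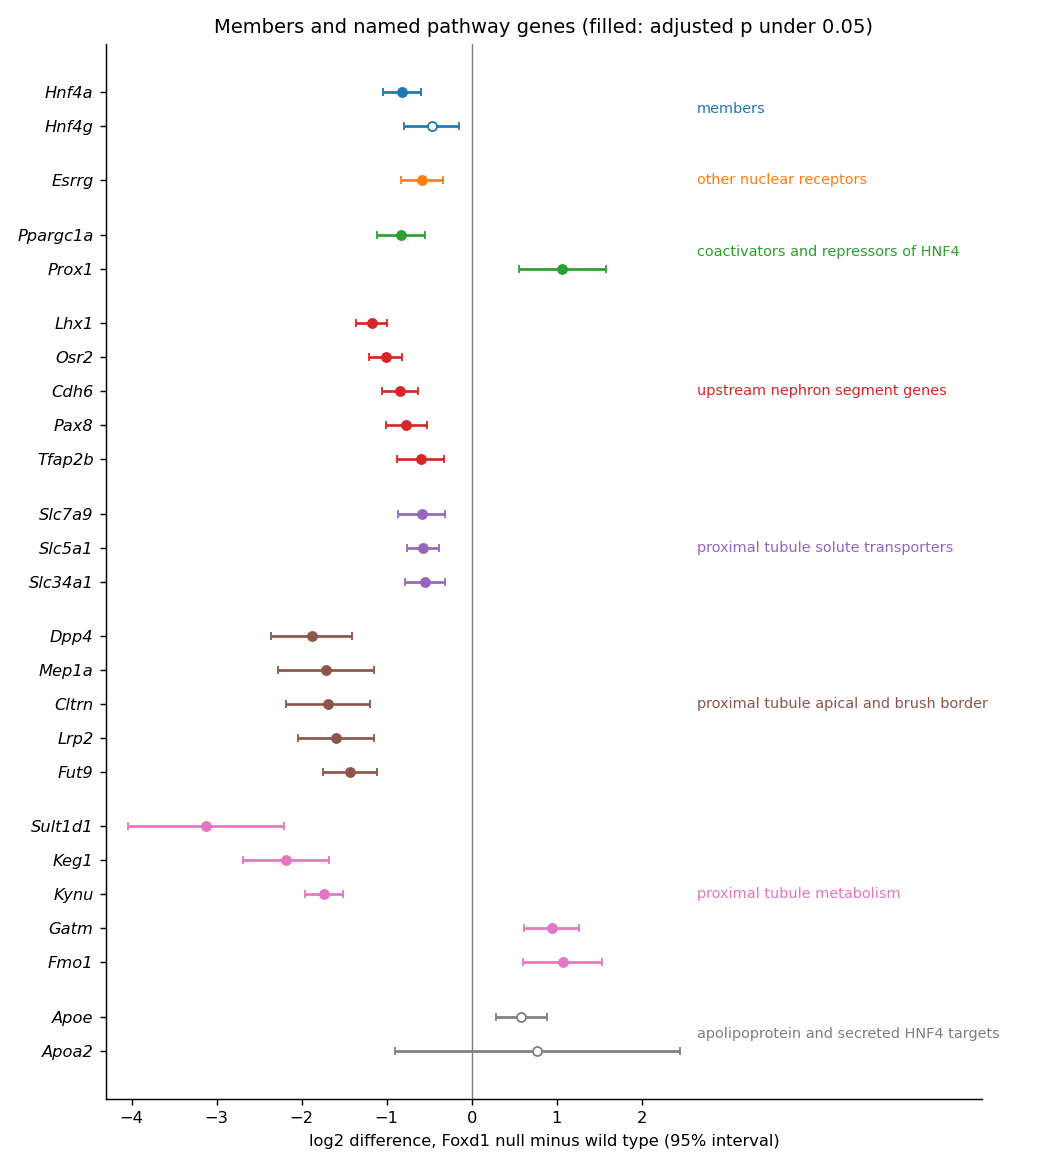
Log2 difference with its 95% interval for both members and the named genes of each list; filled points have an adjusted p under 0.05. Filled falls range from -0.55 for Slc34a1 to -3.13 for Sult1d1, and Prox1, Gatm and Fmo1 are the filled points above 0.

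Genes of the proximal tubule were described in 3 lists, and whether each gene is a target of HNF4 was not examined. Of the 93 measured genes of these lists, 18 fell, 2 rose and 73 did not pass, with a median difference of -0.15. Over all genes 0.767% fell and 1.64% rose. These lists were assembled knowing that proximal genes fall in these pools, so their counts are not independent evidence of direction. Of 20 apical and brush border genes 10 fell and 0 rose, with a median of -0.51. The named falls were those of the peptidases Dpp4 (1.88, SE 0.21) and Mep1a (1.71, SE 0.25), the amino acid transport partner Cltrn (1.69, SE 0.22), Lrp2 (1.59, SE 0.20) and the fucosyltransferase Fut9 (1.43, SE 0.14), with adjusted p from 0.00122 to 0.0079. Lrp2 stood at 8.93, 8.86 and 8.11 in wild type pools 1, 2 and 3 and at 7.28, 6.82 and 7.02 in null. Fut9 stood at 7.14, 7.13 and 6.56 in wild type and at 5.46, 5.52 and 5.56 in null. In the authors' deposited table the null expression p was 0.630 for Mep1a, 0.517 for Cltrn, 0.113 for Lrp2 and 0.452 for Fut9, against 0.0364 for Dpp4. Mep1a, Cltrn and Fut9 were not under 0.05 in wild type either (0.0819, 0.155 and 0.0811). The sizes of these 4 falls are therefore uncertain, and no order is read from them. Signed folds in the authors' deposited table were -3.49 for Dpp4, -3.02 for Mep1a, -1.97 for Cltrn, -2.82 for Lrp2 and -1.88 for Fut9. Each is a smaller fall than the log2 difference given here.

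Of 36 solute transporters 3 fell, 0 rose and 33 did not pass (0.767% of all genes fell and 1.64% rose). They were the cystine transporter subunit Slc7a9 (fell by 0.59, SE 0.12), the glucose transporter Slc5a1 (by 0.57, SE 0.08) and the phosphate transporter Slc34a1 (by 0.55, SE 0.11). In the authors' deposited table Slc7a9 had an expression p of 0.231 in wild type and 0.440 in null, so its size is uncertain too. Slc5a1 passed in all 6 fits without 1 pool, Slc34a1 in 2 and Slc7a9 in 1, so the count was 1 without null pool 1 or 3 or wild type pool 1 or 2, 2 without null pool 2, and 4 without wild type pool 3. Of 37 metabolic genes 5 fell, 2 rose and 30 did not pass, with a median of 0.01. Sulfotransferase Sult1d1 fell by 3.13 (SE 0.41) and the acyltransferase Keg1 by 2.19 (SE 0.22). Their null expression p was 0.584 and 0.290 in the authors' deposited table, so the null side was not clear of background and these sizes are uncertain. Signed folds there were -3.72 for Sult1d1 and -3.17 for Keg1, smaller falls than the log2 differences given here. Kynu, which encodes the kynureninase of tryptophan catabolism, fell by 1.74 (SE 0.10). The creatine synthesis enzyme Gatm rose by 0.94 (SE 0.14, adjusted p = 0.00911) and the monooxygenase Fmo1 by 1.07 (SE 0.20, adjusted p = 0.0274). Gatm ran opposite to Hnf4a, with 7.26, 7.57 and 7.86 in wild type and 8.36, 8.47 and 8.69 in null. Without null pool 2 neither passed (adjusted p 0.0505 and 0.125), Fmo1 did not pass without null pool 3 or wild type pool 1 either (0.0931 and 0.055), and 3 metabolic genes fell without wild type pool 1.

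Of 18 apolipoprotein and secreted genes that HNF4A serves in liver, 0 passed in limma in either direction, while Apoe was the lowest in adjusted p. Apoe, of which macrophages also make much, stood at 8.60, 8.62 and 8.64 in wild type and 8.93, 9.16 and 9.53 in null (log2 difference 0.59, SE 0.13, adjusted p = 0.0545, and 0.00814 without null pool 1). Apoa2 was 10.79 in null pool 3 against 7.17 to 8.29 elsewhere, a log2 difference of 0.77 (SE 0.75), which was -0.34 without that pool. The mean log2 level of the whole list was 7.10 in null pool 3 against 6.20 to 6.42 elsewhere. This list shares Apoa1, Apoa2, Apob, Apoh and Ttr with the liver markers described below, so the 2 lists are not separate checks. Of 6 macrophage markers 2 rose (1.64% of all genes rose), and their mean log2 level was 7.42 to 7.75 in null and 7.15 to 7.31 in wild type. Their part in the level of Apoe was not tested.

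HNF4 sites were looked for as the motifs CAAAGTCCA and CAAAGGTCA on both strands of RefSeq promoter windows (GRCm38.p6) that run from 250 bases before a start to 50 after it. Of all 27025 genes with a window 1.1% held a match, and of 82 proximal genes with a window 4 did (4.88%), namely Bhmt, Pdzk1, Slc3a1 and Slc5a11. Of 121 genes with a window that fell over the whole array 2 did (1.65%), a share near that of all genes. Of 18 secreted targets 2 did (11.1%), the clotting factor genes F7 and F9, which differed by -0.09 (SE 0.09) and 0.03 (SE 0.07) with overlapping groups and did not pass. Neither Hnf4a window held a match, and Hnf4g was not searched. Of the 4 proximal genes Pdzk1, which encodes a scaffold of brush border transporters, passed the test and fell by 0.94 (SE 0.14, adjusted p = 0.00969). Slc3a1, the heavy chain that pairs with Slc7a9, differed by -0.24 (SE 0.08, adjusted p = 0.193). Its null pools all lay below its wild type pools, as was so for 8.04% of all genes. Bhmt and Slc5a11 differed by 0.19 (SE 0.12) and 0.01 (SE 0.10), with overlapping groups and adjusted p of 0.544 and 0.975. The sites of Pdzk1 and Slc3a1 are shown with 10 bases on each side, on the plus strand with the motif in capitals, because they hold the same motif letters while 1 of the genes passed the test and 1 did not. That of Pdzk1 lies at chr3:96830069-96830097, 14 bases after the start, and that of Slc3a1 at chr17:85028298-85028326, 39 bases before it.
Pdzk1: aatctttgtcCAAAGTCCAgtgagttcca
Slc3a1: cttggctggaCAAAGTCCAgccatgatta

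By Pearson correlation of log2 values over the 6 pools, among 538 genes at or above the median level with an SD of at least 0.25, the genes most like Hnf4a were Cdh6 (r = 0.998), Smagp (0.997), Ppargc1a (0.994), Steap2 (0.993) and Arhgap24 (0.992). All of these values share the difference between genotypes. With each genotype centred on its own mean they were 0.982, 0.966, 0.993, 0.946 and 0.889. The genes were picked for a high r over the same pools, so high centred values follow in part from that choice and are not separate evidence. Smagp, Steap2 and Arhgap24 fell by 0.52 (SE 0.08), 0.52 (SE 0.09) and 0.64 (SE 0.08). Smagp did not pass without wild type pool 1 (adjusted p = 0.0507), and Steap2 passed in only 2 of the 6 fits without 1 pool (up to 0.0816).

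The genes most like Hnf4g were Gadd45a (r = 0.965), Pls1 (0.960), Calml4 (0.950), Enpep (0.950) and Mecom (0.942). Pls1, Calml4 and Enpep encode a microvillus actin bundler, a calmodulin-like protein of brush borders and a brush border aminopeptidase. Gadd45a, a stress-inducible growth arrest gene, fell by 0.60 (SE 0.12, adjusted p = 0.0304) and passed in 3 of 6 fits without 1 pool (up to 0.138). The remaining 4 did not pass (log2 differences -0.40 to -0.61, adjusted p 0.0535 to 0.243), though without wild type pool 3 Enpep had -0.61 (adjusted p = 0.0221) and Calml4 -0.78 (0.00902), and without null pool 1 Mecom had -0.50 (0.0301). The members had r = 0.838 with each other over the pools, or 0.572 with each genotype centred.

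**Figure D4:**
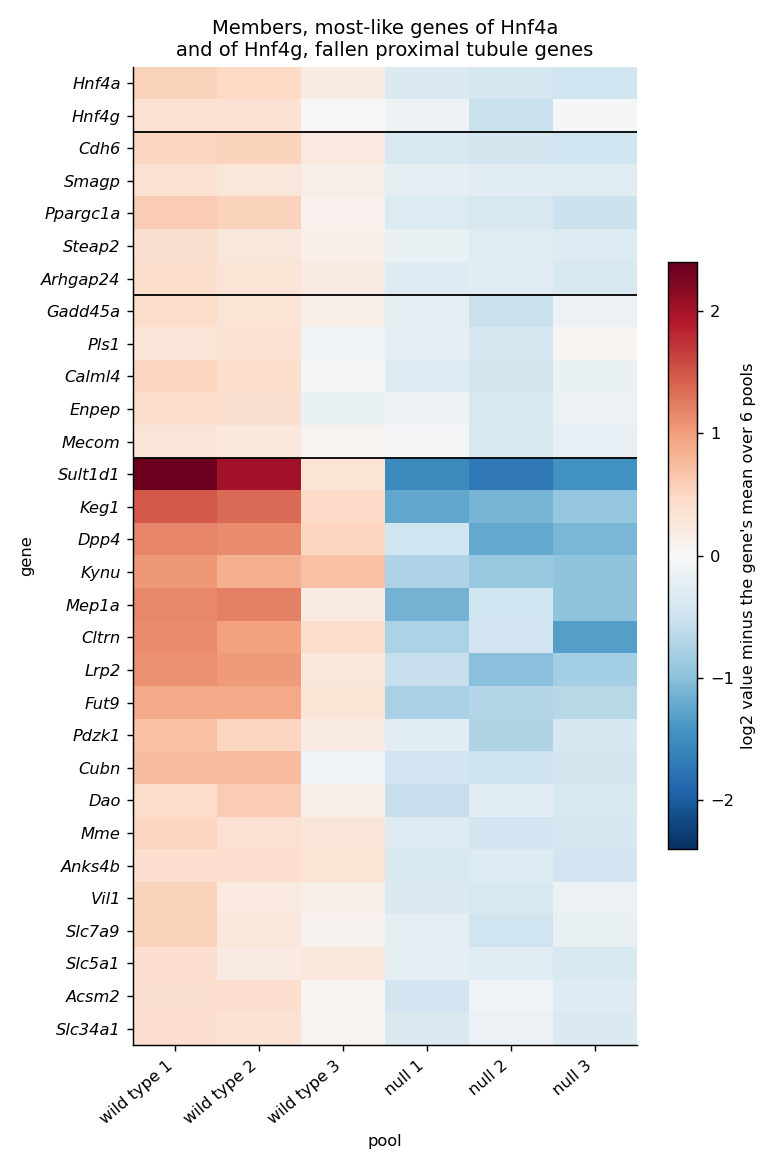
Log2 value of each gene minus its own mean over the 6 pools (colour), by pool, for the members, the 5 genes most like Hnf4a, the 5 most like Hnf4g and the 18 proximal tubule genes that fell. Wild type pool 3 is paler than wild type pools 1 and 2 in most lines, and null pool 2 is the lowest pool for Hnf4g.

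Wild type pool 3 stood lower than the other wild type pools for both members and for most of the proximal genes that fell. It was the lowest wild type pool in 17 of those 18 genes, in 109 (71.2%) of the 153 genes that fell over the whole array, and in 33% of all genes. Hnf4a in that pool kept 64.3% of the distance between the null mean and the mean of wild type pools 1 and 2. Hnf4g kept 36.8% and Lrp2 57.5%. Without wild type pool 3 the log2 difference of Hnf4a was -0.93 (adjusted p = 0.00141) and that of Hnf4g -0.60 (adjusted p = 0.0937).

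The other tissues in which HNF4 is made were checked through marker lists, none of whose genes can read 0 on this scale. Liver markers had 0 of 17 genes past the threshold, and their mean log2 level was 6.26 to 8.07 in null and 6.26 to 6.67 in wild type. The value of 8.07 belonged to null pool 3, where Alb, the albumin gene, stood at 10.64 against 5.81 to 7.45 elsewhere. Hnf4a was at its lowest in that same pool, while Hnf4g had its highest null value there. Without null pool 3 the log2 difference of Hnf4a was -0.79 (adjusted p = 0.0141, limma) and that of Hnf4g -0.57 (adjusted p = 0.142). The part of liver tissue in these values was not tested. Intestinal markers lay at mean levels of 6.03 to 6.29 in null and 6.13 to 6.19 in wild type, and the 1 of 8 that fell, Vil1, is also a brush border gene of the tubule (by 0.59, SE 0.12, passing in 2 of 6 fits without 1 pool, adjusted p up to 0.123).

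Markers of some other cell types also differed between genotypes, where 0.767% of all genes fell and 1.64% rose. Of 8 markers of interstitial stroma 5 rose and 1 fell, with mean log2 levels of 9.62 to 9.82 in null and 9.17 to 9.26 in wild type, and of 6 endothelial markers 3 rose. Among 12 loop of Henle and distal markers 5 fell, with mean levels of 7.04 to 7.15 in null and 7.61 to 7.84 in wild type. That list shares Tfap2b, Pou3f3, Irx1 and Irx2 with the upstream nephron list, so the fall of Tfap2b is counted in both. Of 7 nephron progenitor markers 1 fell (Cited1, by 0.53, SE 0.11, passing in 1 of 6 fits without 1 pool, adjusted p up to 0.186), and their mean levels were 8.47 to 8.65 in null and 8.58 to 8.71 in wild type. Adrenal markers stood high in null pool 3, and 0 of 5 passed. Of 5 podocyte markers 1 fell, of 10 ureteric bud and collecting duct markers 1 rose, and 0 of 8 skeletal muscle and 0 of 5 erythroid markers passed. The part of these shifts in the values of Hnf4a and Hnf4g was not tested.

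**Figure D5:**
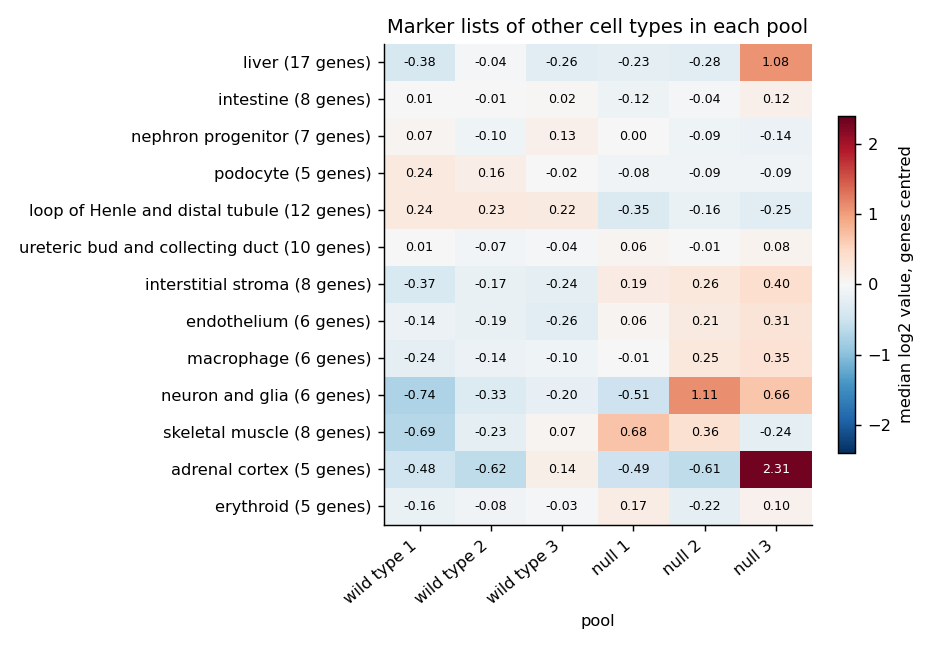
Median over each marker list of log2 values centred on each gene's own mean, by pool, printed in each cell. Liver (1.08) and adrenal (2.31) markers are highest in null pool 3, and neuron and glia markers in null pool 2 (1.11).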

How the data were processed

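Total RNA of 6 pools of E14.5 mouse kidneys was amplified from 50 ng and labelled with biotin, per the labels' protocols. The authors deposited normalized log2 values for each pool, made with a program not given in the sources used here. They also deposited a table of 488 probe sets with signed folds, p-values and group medians in natural log units; the fold is stored as a signed score, per the file headers. Over 440 shared probe sets the slope of the log2 on the natural-log differences was 1.50, near the 1.44 of log base 2. That slope checks the unit and not the value of each gene. As log2, the null median of Hnf4a was 7.11 in the authors' deposited table and 6.90 in the pools, and that of Sult1d1 was 6.21 and 4.95.

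Rows with exactly 1 symbol were kept, 1 per gene (highest mean over 6 pools): 21789 of 35556 rows gave 19938 genes. A model with genotype as its only term and no filter was fitted by lmFit and eBayes (limma 3.58.1, R 4.3.3), with two-sided p-values adjusted by Benjamini-Hochberg over all genes and a threshold of 0.05. Since each pool drew on 2 of only 3 litters, pools share litters within and between genotypes, so p-values measure the spread between these pools; only 6 arrays limit the precision (median SE 0.086). On simulated data for this comparison (19938 genes), 100 of 100 genes changed 2-fold and 78 of 100 changed 1.5-fold were recovered, with 2 false calls. The simulated pools were independent, without shared litters, a shift such as that of wild type pool 3, or an array floor. These rates therefore check the fit and need not hold for the real pools. Plots were drawn with matplotlib 3.10.9 from tables made with pandas 2.3.3 (Python 3.11.15).

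The members, gene lists and rules were chosen with earlier results of these data known. The rule for named genes took the members, Foxd1, up to 5 genes per pathway list past the threshold with the largest difference (2 of the highest level where none passed), and 5 genes most like each member. The 7 Notch pathway genes, Rxra, Nr0b2, F7, F9, Alb, Vil1, Cited1, Hnf4aos, Pdzk1, Slc3a1, Bhmt and Slc5a11 were named outside it, after their values or sites were seen. Alternatives were a replicate block, quantile or median scaling, a filter on dim rows, other rows per gene, other variance models, array weights and leaving out each pool.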

Additional observations from a re-analysis of the deposited data

How the results depend on the processing

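Hnf4a kept its direction and its call in all 15 alternatives (log2 differences -0.93 to -0.75, adjusted p 0.000482 to 0.0491), and was closest to the threshold when all rows of the array were tested. Hnf4g kept its direction and did not pass in any of 14 (-0.60 to -0.32, adjusted p 0.0787 to 0.427); with the filter on dim rows it had no value, since its mean was under 6 in both groups. The replicate numbers were tried as a replicate block and gave adjusted p = 0.0031 for Hnf4a and 0.174 for Hnf4g. Deviations of same-numbered pools correlated at 0.125, 0.0677 and 0.0533, all above the -0.0967 to 0.0375 of differently numbered pools. Since deviations were taken from the mean of each genotype, these values depend on each other. Positive ones for same-numbered pools push the others down, so the contrast is partly built in. No label pairs the pools, so the numbers were not taken as pairs in the main fit, and whether they mark pairs is not known. The block gave 158 genes lower and 381 higher. The ratio of Hnf4a to Hnf4g stayed lower in null (-0.49 to -0.22 without 1 pool).

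Testing all rows, which adjusts over more tests, gave 29 genes lower and 61 higher, against 153 and 326. It left 3 falls among upstream nephron genes, 4 among brush border genes, 2 falls and 0 rises among metabolic genes, and 0 among transporters, other receptors and the coactivators and repressors in either direction. The rise among coactivators and repressors was also lost (0) with quantile normalization and the robust trend. The robust trend gave 1 metabolic rise, and it and the plain trend gave 1 brush border rise. Apoe gave 1 rise among secreted genes under the replicate block, median centring, dim-row filter, both trends and array weights. Leaving out 1 pool gave 64 to 171 genes lower and 127 to 572 higher, 4 to 5 upstream falls, 8 to 11 brush border falls with 0 to 1 rises, 1 to 4 transporter falls with 0 to 1 rises, 3 to 5 metabolic falls with 0 to 2 rises, and 0 to 1 in the other lists. Without null pool 3 the differences of Apoa2 and Alb reversed to -0.34 and -0.29; without 1 pool they reached 1.47 and 2.07 at most. Genes near 0 changed sign without ever passing: Jag1 ranged from -0.11 to 0.040, Notch2 from -0.0074 to 0.081, Nr0b2 from -0.084 to 0.044, Rxra from -0.0042 to 0.042, Slc5a11 from -0.077 to 0.12 and Heyl from -0.12 to 0.13 without 1 pool. Rxra was -0.00712 and Slc5a11 -0.017 with quantile normalization, they were -0.017 and -0.024 with median centring, Slc5a11 was -0.00146 and Heyl 0.000605 with array weights, and F9 was -0.0013 with median centring. Over 54 named genes and ratios, 672 of 790 values kept their direction and side of the threshold, 72 lost the call, 25 gained it and 21 reversed. The causes of these changes were not tested. The number of arrays and dim signal limit the precision.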
